A study of Mus musculus with 10 samples.

Results

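Protocadherins are cell adhesion proteins of the cadherin superfamily, and their genes were examined here in the lungs of mice given the cytokine IL-33 through the nose. The members are all genes whose identifier in the deposited count files maps to a symbol that starts with Pcdh. This gave 70 identifiers of 53465 listed, with 14 in the Pcdha (alpha) cluster, 22 in Pcdhb (beta), 12 in Pcdhga, 7 in Pcdhgb and 3 in Pcdhgc (the gamma cluster), and 12 outside the clusters. The choice used the symbol alone, but the family was proposed with earlier results of the same comparison known, so every change below is a description of these libraries, with no test of its own. RNA from lung tissue of BALB/c mice was sequenced in 10 libraries, 5 of untreated controls and 5 of mice challenged with IL-33, an alarmin released by epithelium. Over 5 days the IL-33 mice had a daily dose of 1 µg (35 µL), and lung was collected 24 hours after the final one. The labels give neither age nor sex, and none mentions a vehicle for controls, so instillation and IL-33 cannot be told apart. They list 10 lung samples and do not state that each is a separate mouse, so the spread given is that between these samples.

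The clustered protocadherin genes lie side by side on mouse chromosome 18. Each alpha and gamma gene has a large first exon of its own, with its own promoter, which encodes the cadherin repeats and membrane span and is spliced to a few constant exons shared by its whole cluster, which encode a common cytoplasmic tail. Beta genes are single exons with no such shared tail. The proteins are best known in neurons, where each cell uses a small set of promoters, chosen with the help of CTCF and cohesin, and where like sets on touching cells are recognised, whereas the C-type genes at the cluster ends are used more evenly. Non-clustered protocadherins are single genes, among them Pcdh1 of airway epithelium, linked in humans to asthma and bronchial hyperresponsiveness, and Pcdh12 of endothelium.

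The design of the clusters decides what a gene count can show. In the GENCODE M21 annotation of GRCm38, each of the 14 Pcdha identifiers shared 2860 or 2864 exonic bases with other alpha genes, and the median for gamma genes was 2119. Reads in those constant exons belong to every gene of the cluster. The counts do not hold them for every gene. Pcdhga3, a gamma gene, held 0 reads in IL-33 library 1, where the summed gamma genes held 54.6 CPM (reads scaled to library size with TMM factors), so constant exon reads were not added to each gene. Alpha and gamma counts are therefore read here as counts of the bases that a gene does not share, mainly its first exon, and not of the shared tail. Between 8.56% and 61.1% of exonic bases were an alpha gene's own on its strand, 33.2% to 68.5% for gamma genes and 90.3% to 100% for beta genes. All 4732 exonic bases of Pcdhga10 lie under exons of other genes when strand is ignored, most of its first exon under the antisense gene Gm26672, yet it held 457 control reads against 28 for Gm26672, so reads were assigned by strand or with another exon model. Of the 75-base windows in a gene's own bases, 0% to 19.4% occurred in another gene for Pcdha, 0.794% to 13.2% for Pcdhgb, at most 2.55% for Pcdhga and 4.05% for Pcdhb, and none for Pcdhgc and non-clustered genes. Levels of Pcdhgb1 (13.2%) and Pcdhgb2 (12.5%) are thus less certain than those of the other gamma genes.

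Libraries held 7805175 to 13767118 reads counted in genes. Multiply aligned records made up 15.0% to 16.2% of all records in controls and up to 22.8% in IL-33 libraries, and their part in the changes below was not tested. The lung origin was evident in both groups, with the type 2 cell gene Sftpc at 10586 and 10199 CPM in control and IL-33 means and the club cell gene Scgb1a1 at 17090 and 12041 CPM. Of 15695 genes that passed a low-count filter, 69.9% were called, 34.8% lower and 35.1% higher in IL-33 lungs by edgeR's quasi-likelihood test at a Benjamini-Hochberg adjusted p of 0.05, so about as many genes went each way. "Fell" below means called lower in that fit, and all changes are log2 fold changes of IL-33 over control, with an SE from the 5 and 5 libraries.

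Most protocadherins that could be tested were lower in the IL-33 lungs. Of the 70 members, 48 passed the filter, and 42 of these fell, against 34.8% called lower of all tested genes. None was called higher by edgeR, DESeq2 or limma-voom, and 0 were higher at an unadjusted p of 0.05. The median change of the 48 was -1.17, against -0.01 for all tested genes. In 36 members every control library lay above every IL-33 library, a pattern found in 27.4% of tested genes, while 56.5% had no overlap in either direction. At least a 2-fold fall was called for 34 members, where the background was 8.79%. At least a 4-fold fall was called for 12 members, where the background was 0.739%, or 116 genes in all. A member that passed the filter only through its control reads had to be lower, so these counts describe the 48 and not the 22 that stayed below it. In whole lung, fewer cells that use a gene and less of its RNA per cell cannot be told apart.

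The fall differed in size between the groups of genes. Summed over its genes, Pcdha went from 22.4 ± 6.96 to 4.07 ± 1.96 CPM (mean ± SD, n = 5), a log2 ratio of -2.46. Pcdhgb went from 39.9 ± 2.06 to 8.14 ± 3.24 CPM (-2.29), Pcdhgc from 147 ± 6.17 to 31.2 ± 11.4 CPM (-2.24) and Pcdhga from 50.7 ± 2.28 to 16.2 ± 3.31 CPM (-1.64). Pcdhb stood at 108 ± 4.58 and 54.0 ± 7.80 CPM (-0.996), and the non-clustered genes at 676 ± 54.0 and 370 ± 47.9 CPM (-0.87). The Pcdha and Pcdhgc sums are each mostly 1 gene. Pcdhac2 held 20.8 and 3.58 CPM of Pcdha in control and IL-33 means, and Pcdhgc3 140 and 24.6 CPM of Pcdhgc. The median change of the 3 Pcdhgc genes was -0.50. In all 6 sums the lowest control lay above the highest IL-33 library. The sum over all gamma genes was 229 to 247 CPM in controls and 34.8 to 82.2 CPM in IL-33 libraries.

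**Figure D1:**
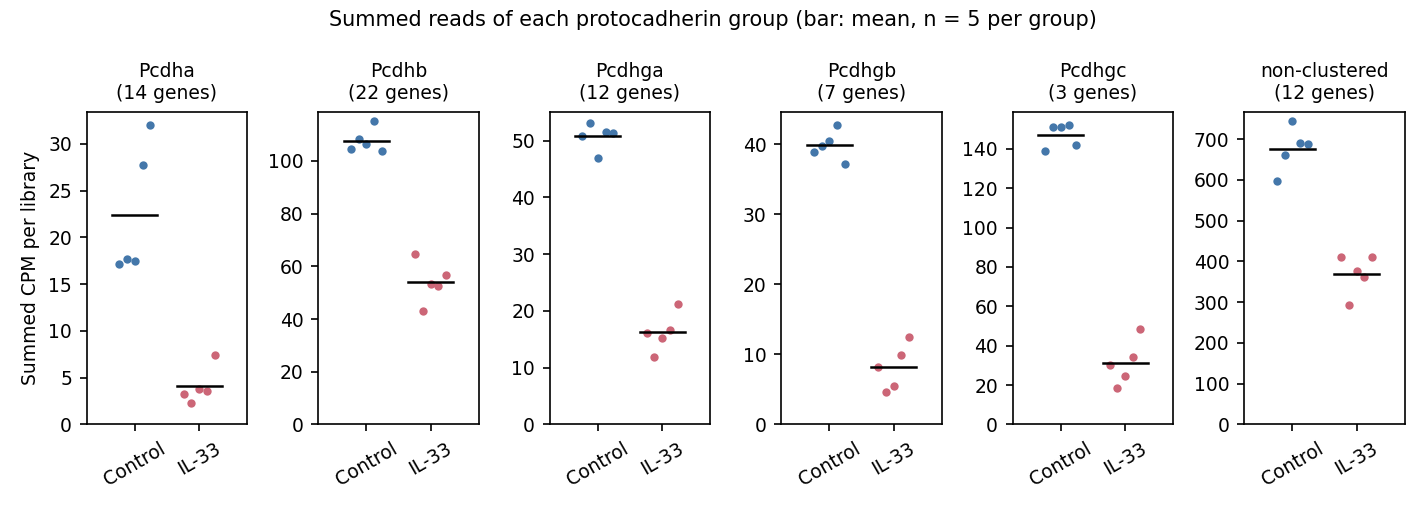
Summed CPM per library (vertical axis, linear from 0) of the genes of each protocadherin group, with controls in blue and IL-33 libraries in red, and the mean of 5 as a bar. No control and IL-33 points overlap in any panel, and the ratio of the means is largest for Pcdha (5.51-fold), Pcdhgb (4.90-fold) and Pcdhgc (4.72-fold). The Pcdha sum is mostly Pcdhac2 and the Pcdhgc sum mostly Pcdhgc3.

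In control lung, levels per kilobase of a gene's own exonic bases (CPM per kilobase) were led by Pcdh1, at 50.1 ± 6.51, and the C-type gamma gene Pcdhgc3, at 41.3 ± 1.997, whose library ranges overlap. Pcdh12 followed at 11.6 ± 2.91, Pcdh18 at 8.05 ± 0.743, Pcdhac2 at 6.88 ± 2.15, Pcdh17 at 6.75 ± 1.88 and Pcdhb9 at 6.05 ± 1.06. Along these last 5 genes, neighbours in the order overlap in their library values. The highest ordinary gamma gene was Pcdhgb7, at 4.34 ± 0.528 CPM per kilobase. Pcdhgc3 thus stood far above every other gamma gene per kilobase.

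The C-type gene Pcdhgc3 (ENSMUSG00000102918, chromosome 18, 37806364 to 37841873, plus strand, GRCm38) is known in the brain for dendrite branching and for binding Axin1 of the Wnt pathway. It held 131, 143, 146, 145 and 134 CPM in control libraries 1 to 5, and 24.97, 10.9, 17.9, 27.2 and 42.2 CPM in IL-33 libraries 1 to 5. All IL-33 libraries lay far below all controls, lowest in library 2 and highest in library 5. The log2 fold change was -2.48 ± 0.33, or 5.67-fold lower. An antisense gene, BC037039, covers 1559 bases of Pcdhgc3 exons, and it too fell, from 4.002 ± 0.905 to 1.89 ± 0.441 CPM.

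The other C-type genes of the gamma cluster behaved differently. Pcdhgc4 (chromosome 18, 37815079 to 37841873), known for keeping neurons alive, held 4.10, 3.39, 3.38, 2.54 and 4.08 CPM in controls and 3.55, 4.25, 4.28, 3.19 and 3.94 CPM in IL-33 libraries. These ranges overlap, and its change of 0.12 ± 0.15 was not called. Pcdhgc5 (chromosome 18, 37819513 to 37841873), a brain isoform of the same cluster, had 3.32, 4.70, 2.36, 4.46 and 4.55 CPM in controls and 1.68, 3.10, 2.59, 3.90 and 2.38 CPM in IL-33 libraries. The groups overlap, and its change of -0.50 ± 0.27 was not called. It was called without control 3 (-0.63) and without IL-33 library 4 (-0.68). Pcdhgc3 supplied 58.8% ± 1.35 of all gamma reads in controls and 42.5% ± 7.55 in IL-33 libraries, while the Pcdhgc4 share went from 1.48% ± 0.315 to 7.63% ± 3.13. In IL-33 library 2, the one with the least gamma signal, the Pcdhgc3 share was 31.4% and the Pcdhgc4 share 12.2%.

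**Figure D2:**
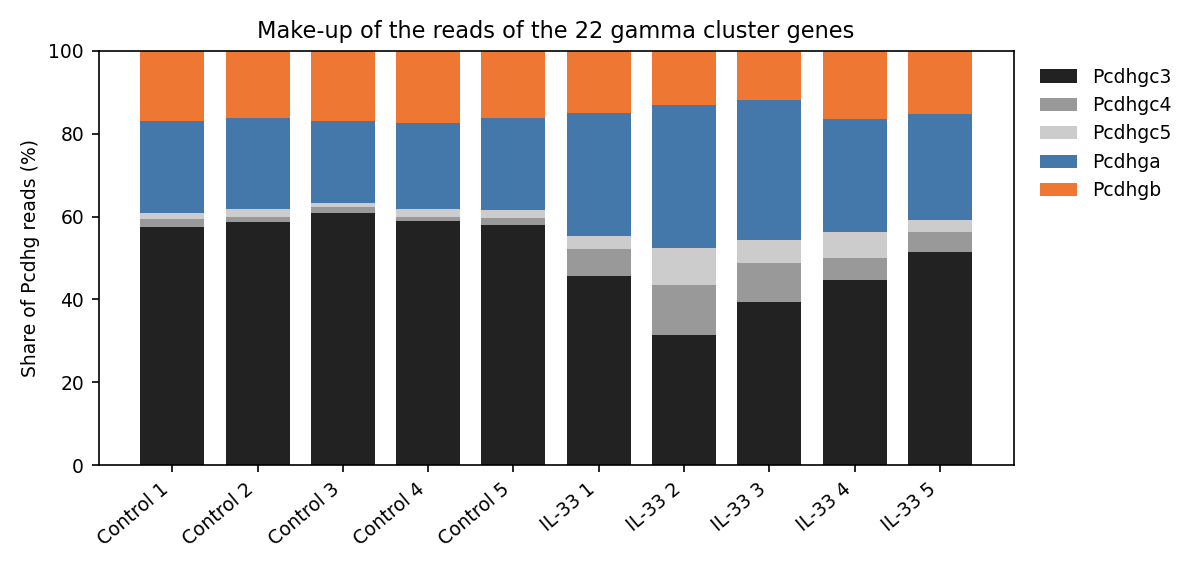
Share of the reads of the 22 gamma cluster genes (percent, vertical axis) taken by Pcdhgc3, Pcdhgc4, Pcdhgc5, the 12 Pcdhga and the 7 Pcdhgb genes in each library. Pcdhgc3 made up 57.5% to 61.0% in controls and 31.4% to 51.4% in IL-33 libraries.

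Of the ordinary gamma genes, whose first exons are interleaved as A and B types, 11 of 11 tested Pcdhga and 7 of 7 Pcdhgb genes fell. The medians were -1.78 and -2.39. Most of these genes could not have passed the filter on their IL-33 libraries alone, so it favoured lower values among them. Examples are Pcdhga3, at 0 to 0.701 CPM in IL-33 libraries, and Pcdhgb1, at 0.0987 to 0.520 CPM. Exceptions were Pcdhga1, Pcdhga6, Pcdhga8 and Pcdhga12. In 17 of the 18 tested genes the groups did not overlap, Pcdhga11 being the exception, and mean levels were 1.77- to 7.51-fold lower. Pcdhgb7 (chromosome 18, 37751600 to 37841873), the most abundant, held 9.96, 11.2, 12.6, 12.7 and 9.87 CPM in controls and 1.38, 0.919, 1.30, 2.18 and 3.20 CPM in IL-33 libraries, a change of -2.57 ± 0.31. All 5 IL-33 libraries were far below the lowest control. Pcdhga10 (chromosome 18, 37746993 to 37841873) held 7.14, 8.64, 8.89, 9.28 and 8.73 CPM in controls and 2.07, 0.459, 1.04, 1.71 and 2.155 CPM in IL-33 libraries, a change of -2.45 ± 0.38.

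Pcdhgb1 had the lowest value of all members, -2.73 ± 0.36, but rests on 110 reads in controls and 16 in IL-33 libraries. Pcdhgb6 stood at -2.50 ± 0.37, Pcdhgb5 at -2.39 ± 0.26, Pcdhga9 at -2.19 ± 0.26, Pcdhgb2 at -1.82 ± 0.27 and Pcdhgb8, annotated as a polymorphic pseudogene, at -1.36 ± 0.28. The smallest falls were those of Pcdhga1, the first gene of the gamma cluster, at -0.81 ± 0.19, Pcdhga6 at -1.004 ± 0.205, Pcdhga8 at -1.12 ± 0.18 and Pcdhga12, the last of the A type, at -1.13 ± 0.16. Pcdhga6 went from 8.11 ± 2.22 to 4.03 ± 0.667 CPM, with library values of 5.63 to 11.7 in controls and 2.87 to 4.54 after IL-33. Neighbours along the cluster could differ, since Pcdhga6 at -1.004 lies beside Pcdhga7 at -2.04 and Pcdhga5 at -1.78, though the difference between them was not tested. Pcdhga2 stayed below the filter, with 67 reads in controls and 17 in IL-33 libraries.

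Most alpha cluster reads in lung came from its last gene. Pcdhac2 (ENSMUSG00000102697, chromosome 18, 37143503 to 37187657), the C-type gene that serotonin neurons need to spread their axons, supplied 92.9% ± 2.32 of alpha reads in controls and 86.5% ± 6.50 in IL-33 libraries. It held 16.1, 15.97, 16.7, 25.2 and 30.2 CPM in controls and 3.06, 1.84, 3.11, 2.96 and 6.91 CPM in IL-33 libraries. Every IL-33 library was below every control, and controls 4 and 5 stood above the other controls. The change was -2.49 ± 0.35, or 5.82-fold lower. Pcdhac1, the other C-type alpha gene, was below the filter, with 38 control and 8 IL-33 reads.

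The 12 remaining alpha identifiers were near or at 0. Of these, 5 had no read in any library (Pcdha2, Pcdha3, Pcdha4, Pcdha6 and 1 of the 2 identifiers named Pcdha11, ENSMUSG00000102206). A count of 0 allows up to 0.218 to 0.384 CPM in 1 library, taking 3 reads as the limit, which covers counting error only. Of Pcdha4 just 8.56% of exonic bases were its own, so its 0 says little. The other Pcdha11 identifier, ENSMUSG00000007440, had 25 control and 8 IL-33 reads, but RefSeq (GRCm38.p6) places Pcdha10 at that position, so which of these genes the reads belong to is uncertain. Pcdha12 had 15 and 5 reads. Pcdha9, at 0 in controls, had 4 reads in IL-33 libraries.

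Beta genes fell in 18 of 20 tested cases, with a median of -1.05 and groups apart in 13. Pcdhb9 (chromosome 18, 37400855 to 37403909), the most abundant, held 17.3, 16.8, 16.4, 24.2 and 17.6 CPM in controls and 11.9, 5.86, 8.69, 7.95 and 10.3 CPM in IL-33 libraries. No IL-33 library reached the lowest control, and the change was -1.04 ± 0.20. Pcdhb17 went from 12.3 ± 1.59 to 6.41 ± 1.77 CPM (-0.92 ± 0.21) and Pcdhb20 from 7.51 ± 0.569 to 3.63 ± 0.309 CPM (-1.05 ± 0.07), the latter with 6.53 to 7.98 CPM in controls and 3.22 to 3.97 CPM after IL-33.

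The range of the tested beta genes ran from Pcdhb5, at -1.67 ± 0.25, to Pcdhb22, the last gene of the cluster, at -0.25 ± 0.17. Pcdhb22 held 4.73, 6.56, 7.32, 5.95 and 6.26 CPM in controls and 5.72, 3.56, 6.10, 5.61 and 4.68 CPM in IL-33 libraries, so its groups overlap and it was not called. It shares 455 bases with Pcdhb21, which fell by 1.05. Pcdhb6 was the other tested beta gene without a call, at -0.34 ± 0.33. The call of Pcdhb15 (-0.83 ± 0.29) was lost in DESeq2, with no low-count filter and without any of 7 single libraries, and IL-33 library 5, at 1.56 CPM, lay inside the control range. Pcdhb1 and Pcdhb2 were below the filter, with 4 and 40 reads in all.

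**Figure D3:**
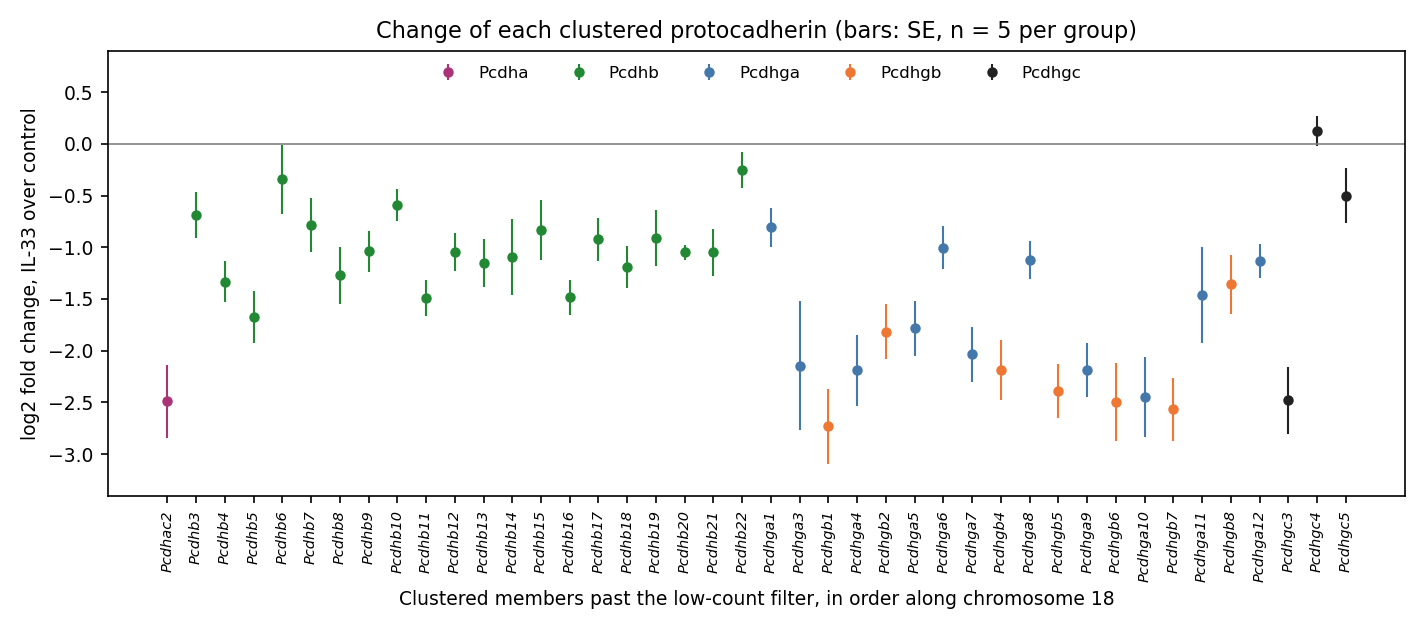
Log2 fold change of IL-33 over control (vertical axis, bars SE, n = 5 per group) for the 42 clustered genes past the filter, in their order along chromosome 18. Beta genes lie between -0.25 and -1.67, gamma A and B genes between -0.81 and -2.73, and Pcdhgc4 alone lies above 0.

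Among the 12 non-clustered genes 6 passed the filter, and 4 of them fell. Pcdh1 (ENSMUSG00000051375, chromosome 18, 38185914 to 38212053, minus strand), the adhesion gene of airway epithelium, held 365, 420, 524, 450 and 446 CPM in controls and 214, 167, 207, 216 and 248 CPM in IL-33 libraries. The groups were apart, with a change of -1.07 ± 0.12. It made up 65.0% ± 3.33 of non-clustered reads in controls. Its change was -0.66 after a correction for gene length and GC content. Pcdh12 (chromosome 18, 38267089 to 38284402), a protocadherin of endothelial junctions also called VE-cadherin-2, held 70.6, 94.3, 80.05, 56.4 and 50.9 CPM in controls and 23.1, 28.7, 27.5, 27.5 and 27.9 CPM in IL-33 libraries. Controls spread widely, IL-33 libraries hardly at all, and the change was -1.38 ± 0.17.

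Pcdh18 (chromosome 3, 49743296 to 49757325, minus strand), a delta protocadherin, held 37.0, 47.9, 43.8, 44.5 and 42.9 CPM in controls and 19.1, 14.01, 20.2, 18.6 and 17.5 CPM in IL-33 libraries, a change of -1.27 ± 0.11 with the groups apart. Pcdh19 (chromosome X, 133582860 to 133688987, minus strand), known in humans as an epilepsy gene, went from 11.0 ± 1.66 to 6.59 ± 1.07 CPM (-0.73 ± 0.14), and its highest IL-33 library, at 8.39 CPM, lay below its lowest control, at 9.01 CPM.

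Pcdh17 (chromosome 14, 84443563 to 84539002), a delta protocadherin of synapses, did not follow. It held 91.6, 55.8, 70.4, 112 and 109 CPM in controls and 128, 61.9, 98.3, 72.4 and 86.1 CPM in IL-33 libraries, with wide overlap. Its change of 0.02 ± 0.26 was not called, and its sign flips with no low-count filter and without control 2, control 3, IL-33 library 1 or IL-33 library 3. Its share of non-clustered reads went from 13.1% ± 3.79 to 23.9% ± 4.76. Pcdh7 (chromosome 5, 57717967 to 58133230) held 19.6, 27.9, 17.0, 17.2 and 24.6 CPM in controls and 16.1, 14.9, 15.3, 18.4 and 24.0 CPM in IL-33 libraries, with a change of -0.25 ± 0.19 and no call. Leaving out IL-33 library 5 gave a call at -0.39.

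**Figure D4:**
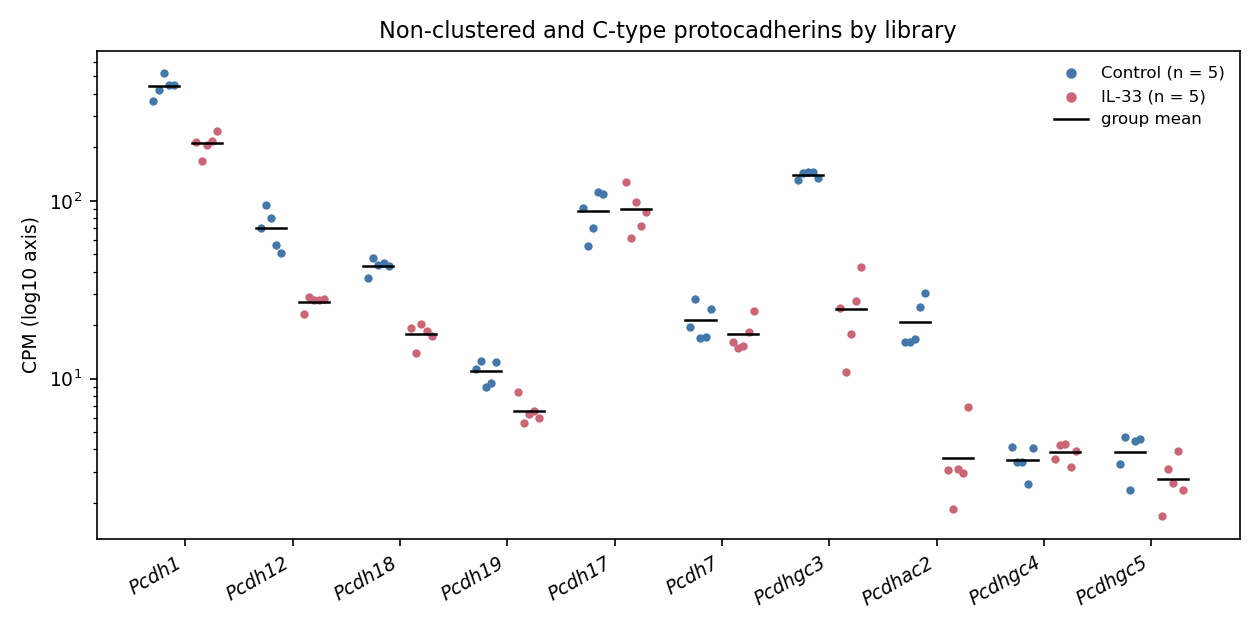
CPM per library (log10 axis) of the 6 non-clustered genes past the filter and of 4 C-type cluster genes, with controls in blue, IL-33 libraries in red and the mean of 5 as a bar. Pcdh1, Pcdh12, Pcdh18, Pcdh19, Pcdhgc3 and Pcdhac2 have no overlap between groups, while Pcdh17, Pcdh7, Pcdhgc4 and Pcdhgc5 overlap.

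The remaining 6 non-clustered genes were barely detected. Pcdh9 had 30 reads in controls and 13 in IL-33 libraries, Pcdh20 14 and 7, Pcdh11x 11 and 10, Pcdh10 10 and 6, and Pcdh15, the tip link gene of inner ear hair cells, 5 and 9. Pcdh8 had 1 read in all. None held more than 7 reads in 1 library. The Pcdh9 values did not overlap between groups, at 0.424 to 0.766 and 0 to 0.389 CPM, but it was too low to be tested.

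Promoter CG content, which the choice of members did not use, is shown for Pcdh18 and Pcdh19, which fell, and Pcdh17, which did not, since the promoters of clustered protocadherins are known to be methylated. The 250 bases before each start, from RefSeq (GRCm38.p6), follow 5′ to 3′ on the gene's strand with each CG in capitals.
Pcdh18, chr3:49757317-49757566, minus strand: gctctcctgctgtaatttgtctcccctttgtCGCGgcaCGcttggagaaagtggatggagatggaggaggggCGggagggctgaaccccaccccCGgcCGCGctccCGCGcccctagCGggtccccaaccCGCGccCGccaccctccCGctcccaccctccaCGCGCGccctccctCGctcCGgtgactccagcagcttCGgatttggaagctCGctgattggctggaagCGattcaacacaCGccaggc
Pcdh19, chrX:133688994-133689243, minus strand: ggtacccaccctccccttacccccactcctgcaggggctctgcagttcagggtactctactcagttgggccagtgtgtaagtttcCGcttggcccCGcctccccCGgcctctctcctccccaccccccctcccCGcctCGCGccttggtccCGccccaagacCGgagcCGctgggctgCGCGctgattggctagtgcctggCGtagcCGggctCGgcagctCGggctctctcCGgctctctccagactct
Pcdh17, chr14:84443313-84443562, plus strand: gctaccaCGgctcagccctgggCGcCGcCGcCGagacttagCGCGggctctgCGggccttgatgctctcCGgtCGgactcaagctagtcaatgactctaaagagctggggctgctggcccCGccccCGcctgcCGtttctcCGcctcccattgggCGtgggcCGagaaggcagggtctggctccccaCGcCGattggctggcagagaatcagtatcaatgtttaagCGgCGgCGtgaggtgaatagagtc
These hold 23, 16 and 21 CG pairs, against a median of 6 and an upper quartile of 16 over 27025 genes, where 91.7% of promoters hold at least 1 CG. The Pcdh7 window held 7. Among barely detected genes, Pcdh10 held 22, Pcdh9 18, Pcdh8 11, Pcdh15 6 and Pcdh20 3. The Pcdh20 window did not match the start of an annotated transcript of that gene. The Pcdh15 window begins at 73821617, inside the gene, which starts at 73099342. The Pcdh7 window, 57717831 to 57718080, runs past the annotated start of that gene at 57717967. The counts of Pcdh20, Pcdh15 and Pcdh7 are therefore less certain than the others. RefSeq windows were matched for 9 member genes, all outside the clusters, and for neither Pcdh1 nor Pcdh12. No promoter of a clustered gene was therefore read. CG was searched as the letters CG, which read the same on both strands, and methylation was not measured.

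Genes known to control, process or bind protocadherins went in both directions. Of 18 genes of promoter choice and silencing, 3 were called higher and 5 lower, with a median of 0.03, and 8 were called higher after the length and GC correction. Ctcf, the zinc finger protein that binds protocadherin promoters and enhancers, stood at 125 ± 3.96 and 119 ± 7.77 CPM (-0.07 ± 0.05, not called), and the cohesin subunit Rad21, the most abundant of the list, at 212 ± 6.26 and 233 ± 19.8 CPM (0.14 ± 0.06, not called). Smchd1, a silencer of the clusters, had 0.01 ± 0.06, also not called. Stag2, another cohesin subunit, fell by 0.51 and Tet1, which oxidises methylated cytosine, by 0.89.

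Of 21 genes of protocadherin tails and processing, 5 were higher and 11 lower, with a median of -0.28. Ptk2b, a kinase that binds alpha and gamma tails, rose by 1.14 and its relative Ptk2 fell by 0.84. Cyfip2 of the WAVE actin complex, which delta protocadherins bind, rose by 1.09 and Nckap1 of the same complex fell by 0.90. Ctnnb1, the most abundant, went from 883 ± 33.0 to 675 ± 50.8 CPM (-0.39 ± 0.05), and Adam10, a sheddase that cleaves gamma protocadherins, had 0.03 ± 0.05 and was not called. Of 35 other cadherin superfamily genes 27 were tested, with 17 lower, 3 higher (5 after that correction) and a median of -0.57. Cdh5, the endothelial VE-cadherin and the most abundant, went from 1312 ± 96.6 to 435 ± 68.1 CPM (-1.59 ± 0.11), Cdh13 fell by 1.92 and the epithelial Cdh1 by 0.39, while Cdh17 rose by 2.55 from 0.328 ± 0.120 CPM. These 3 lists count against the same 34.8% lower and 35.1% higher.

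Genes that lie among the protocadherins on chromosome 18 did not share one direction. Between the first alpha gene and the end of Pcdh12 (36930184 to 38284402), 10 genes that are not members were tested, of which 5 fell, 1 rose and 4 were not called, against 34.8% lower and 35.1% higher over all tested genes. Taf7, a general transcription factor gene between the beta and gamma clusters, went from 15.6 ± 0.963 to 11.3 ± 1.38 CPM (-0.46 ± 0.09). Also before the end of the gamma cluster, 3222401L13Rik (-0.42 ± 0.14) and BC037039 (-1.09 ± 0.21) fell, while Gm29994 (0.61 ± 0.34) was not called. Beyond the gamma cluster, Diaph1 had -0.13 ± 0.07 and was not called, Hdac3 rose by 0.48, and Arap3, known from endothelium, fell by 1.07.

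Markers of lung cell types moved in the same libraries, and their calls stand beside 34.8% of all tested genes lower and 35.1% higher. The 12 endothelial markers summed to 6050 to 6458 CPM in controls and 2995 to 3867 CPM after IL-33, and 8 of 12 fell. Cldn5 (-0.01), Egfl7 (-0.23), Emcn (0.19) and Vwf (0.28) were not called. The 10 alveolar epithelial markers went from 16127 to 19416 CPM to 13173 to 15280 CPM, with 8 of 10 called lower. Sftpc, the largest part of that sum at 10586 and 10199 CPM, was not called. The 8 airway markers went from 18856 to 21049 CPM to 11433 to 13314 CPM, with 3 lower and 3 higher. Most of the airway sum was Scgb1a1, at 17090 and 12041 CPM. Foxj1 and Ccdc153 were not called, and Epcam, Krt5 and Trp63 rose. The 10 fibroblast markers overlapped, at 4663 to 5706 and 5024 to 6586 CPM, with 3 called higher, all collagens, and 6 lower, among them Pdgfra by 1.37, Npnt by 1.62 and Col13a1 by 1.37. Of the 8 smooth muscle and pericyte markers 2 rose, Acta2 by 0.69 and Tagln by 0.62. Another 5 fell, among them the pericyte genes Pdgfrb by 1.33 and Notch3 by 1.24, while Cox4i2 (-0.06) was not called. The 8 markers summed to 1288 to 1554 and 1246 to 1336 CPM. The 4 mesothelial markers summed to 106 to 153 and 49.8 to 105 CPM, with 2 lower and 1 higher. The 10 leukocyte markers summed to 381 to 624 CPM in controls and 1036 to 1146 CPM after IL-33, and 9 of 10 rose while Siglecf fell.

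Neural and heart markers were also read. The 6 Schwann cell markers summed to 71.6 to 93.7 and 65.4 to 92.1 CPM, with none called of 5 tested, and the 8 neuron and neuroendocrine markers to 78.0 to 106 and 83.6 to 108 CPM, with 1 higher and 1 lower of 4 tested. Both neural sums overlapped between groups, but each rests mostly on 1 gene. Mbp held 63.8 and 59.5 CPM of the Schwann cell sum in control and IL-33 means. Stmn2 held 75.6 and 69.0 CPM of the neuron and neuroendocrine sum. In that list Calca rose by 2.75 and Rbfox3 fell by 0.92. The 4 cardiac muscle markers summed to 426 to 1589 and 150 to 421 CPM, with 2 called lower. No marker of these lists was at 0 in all libraries. The part of changed cell make-up in the protocadherin falls was not tested. The gamma genes together went from 238 ± 7.93 to 55.6 ± 17.8 CPM, or 4.28-fold lower.

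Within the IL-33 group, library 2 was the lowest for 12 of 21 tested gamma genes, 10 of 20 beta genes and 5 of 6 non-clustered genes. Library 5 was the highest for 13 gamma genes, 6 beta genes and 2 non-clustered genes, and library 1 for 3, 9 and 2. Marker sums had no single order. Library 2 was the lowest of the IL-33 libraries for the endothelial, alveolar and neuron lists and the highest for the fibroblast, smooth muscle, leukocyte and cardiac lists. Library 5 was the highest for the endothelial (3867 CPM, beside 3797 CPM in library 1) and mesothelial lists and the lowest for the airway list. The part of these lists in the order of the protocadherins was not tested.

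Gene length was compared too, since a length and GC correction moved the calls over all genes from 5467 lower and 5508 higher to 6073 lower and 4666 higher. Clustered members have 2588 to 8695 exonic bases. Of 9588 tested genes in that range, 38.7% were called lower, 31% higher and 9.04% at least 2-fold lower, with a median change of -0.08. With each library's trend on length and GC content removed, 42 members fell and none rose. The median of the tested gamma A genes was then -1.78, of gamma B genes -2.23, of beta genes -1.18 and of non-clustered genes -0.58.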

How the data were processed

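PolyA-enriched RNA from lung went into stranded libraries, per the labels. Tools named in the submitters' processing notes are FastQC 0.11.6, MultiQC 1.6, STAR 2.5.4b and HTSeq 0.9.1, with the GRCm38 genome. No source used here gives the annotation release, the strand setting of counting or the read length. The authors deposited raw counts of reads per gene, not normalized.

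Groups came from the sample titles. Summary lines that name no gene, 0.862% to 0.945% of records as ambiguous, were left out. Counts of 2 libraries of a group always differed beyond sampling noise (chi-square per degree of freedom 5.44 to 30.0). All 10 libraries entered 1 edgeR 4.0.16 fit (R 4.3.3) with filterByExpr, TMM factors (0.969 to 1.03) and group alone, and p-values were adjusted over all 15695 tested genes. CPM uses TMM-scaled library sizes, and the SE comes from log2(CPM + 0.1). The fit was tested on simulated counts.

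Exon sharing, 75-base windows and lengths came from GENCODE M21. Members and lists were chosen with earlier results of these data known. Named were all non-clustered and C-type members, the 4 most abundant and both extremes of each other cluster, and of each list the most abundant gene and the 2 largest called changes among genes of at least 1 CPM. Others named were chosen after their values were seen. Alternatives were DESeq2 1.42.0, limma-voom (limma 3.58.1), other scalings and filters, an adjusted p of 0.01, a replicate block, length and GC offsets, and leaving out each library.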

Additional observations from a re-analysis of the deposited data

Results flagged for a closer look

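Of 112 groups of 5 libraries examined (48 genes and 8 sums, each in controls and in IL-33 libraries), 9 had 1 library standing apart, measured as its gap to the nearest library over the whole range, with 0.71 as the limit. Chance flags about 1 in 20 groups.

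IL-33 library 5 was the high one in 5 of them. It held 6.91 CPM of Pcdhac2 against at most 3.11 in the others (0.749), 7.43 CPM of the Pcdha sum, which is mostly Pcdhac2, against 3.76 (0.715), 1.41 CPM of Pcdhb5 against 0.778 (0.877), 1.56 CPM of Pcdhb15 against 0.623 (0.879) and 1.86 CPM of Pcdhga8 against 1.17 (0.893). Without that library Pcdhac2 stood at -2.92 and Pcdhb5 at -1.98 (log2).

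IL-33 library 1 was low for Pcdh12, at 23.1 CPM against 27.5 to 28.7 (0.783), and IL-33 library 2 for Pcdhga6, at 2.87 CPM against 4.09 to 4.54 (0.729). Control 3 was high for Pcdhb8, at 4.05 CPM against at most 2.94 (0.813), and control 4 for Pcdhb9, at 24.2 CPM against at most 17.6 (0.845).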

How the results depend on the processing

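The count of members called lower was 42, and 40 to 44 under the other scalings, filters, tools and thresholds, 41 to 43 with 1 library left out, and 40 among members with at least 50% of exonic bases their own. None was called higher in any of these. The log2 ratios of the summed clusters kept their sign under 3 other scalings and with each library left out, where Pcdha ranged from -2.80 to -2.31 and the gamma sum from -2.29 to -1.96. Pcdh17, near 0, was -0.0093 with no low-count filter and -0.14 to 0.13 with 1 library left out. After the length and GC correction the promoter choice list had 8 genes called higher in place of 3, and the other cadherin list 5 in place of 3, and the cause was not tested. With the replicate number as a block 43 members were lower, Pcdhgc5 being added at -0.53. Deviations of same-numbered libraries correlated at -0.07 to 0.23, and the labels do not say that numbers pair mice, so the numbers were not taken to pair them. Depth limits the 22 members below the filter, where 3 reads stand for 0.218 to 0.384 CPM.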
